A study of Mus musculus with 4 samples.

Results

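A set of 10 genes for large chromatin enzymes is described here in mouse HT22 cells, in a line made to overexpress MEIS2 and in its control line. It holds the histone methyltransferase genes Kmt2a, Kmt2b, Kmt2c, Kmt2d, Setd1a, Ash1l, Setd2 and Nsd1 and the histone acetyltransferase genes Crebbp and Ep300. They were chosen by symbol, and each was found once among the 56748 genes of the count table. HT22 is an immortalised line derived from mouse hippocampal neurons, and MEIS2 is a homeodomain transcription factor. Reads of poly(A)-selected RNA were counted in 2 libraries per line, called C1 and C2 here for control replicates 1 and 2, and M1 and M2 for the replicates of the MEIS2 line. The labels give all 4 as HT22 and name no treatment, time, vector, promoter or clone, nor whether C1 and C2, or M1 and M2, were separate cultures. The p-values below therefore reflect only how these 4 libraries vary, and that variation may be technical. An effect of MEIS2 cannot be told apart from any other difference between the lines, nor less RNA per cell from fewer cells that express a gene.

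Methylation of histone H3 on lysine 4 marks promoters and enhancers of active genes, and methylation on lysine 36 marks the bodies of transcribed genes. KMT2A and KMT2B write the lysine 4 mark at promoters and CpG islands, KMT2C and KMT2D write the monomethyl form at enhancers, and SETD1A is a catalytic subunit of the complexes that write most of the trimethyl form. SETD2 trimethylates lysine 36 behind the elongating polymerase, NSD1 dimethylates the same residue and ASH1L methylates it at developmental genes. CBP, encoded by Crebbp, and p300, encoded by Ep300, are paralogous coactivators that acetylate histone H3, on lysine 27 among other sites. In neurons CBP acts with the cAMP-responsive factor CREB. In humans, mutations in KMT2A, KMT2D, NSD1 and CREBBP or EP300 cause Wiedemann-Steiner, Kabuki, Sotos and Rubinstein-Taybi syndromes, all with effects on brain development.

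Library totals lay between 15014017 and 16903967 counts. A count of 3, taken as a floor for detection, was thus worth 0.177 to 0.2 CPM (counts relative to the library total), a limit that covers counting error only. Meis2 itself had 245 and 319 counts in C1 and C2 and 5182 and 5571 in M1 and M2, with a log2 fold change of 4.22 (SE 0.34) and an adjusted p, by the quasi-likelihood test of edgeR, of 6.4e-05. Its reads do not separate an introduced copy from the endogenous gene. Of 8 neuronal markers 4 had counts, with a summed level of 26.3 to 29.5 CPM in the control line and 28.1 to 37 CPM in the MEIS2 line, while Rbfox3, Nefl, Snap25 and Prox1 were at 0 in all 4 libraries. The markers with counts did not move together, with log2 fold changes of 0.93 for Map2, -0.40 for Tubb3, -0.55 for Syn1 and -0.09 for Camk2a. Fibroblast markers had counts for 4 of 5 genes and summed to 353 to 355 CPM against 390 to 589 CPM, with Lum at 0. No astrocyte, oligodendrocyte, microglia or endothelial marker was abundant enough to be tested, each of those lists summed to at most 1.47 CPM, and Aqp4, Olig2, Sox10, Cx3cr1, P2ry12, Ptprc and Tek were at 0. Mitochondrial mRNAs, a sign of RNA quality, took 0.655% of C1, 0.909% of C2, 0.918% of M1 and 1.27% of M2. The part of marker genes and of RNA quality in the results below was not tested.

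All 10 genes had a higher fitted level in the MEIS2 line, where 50.9% of the 12802 tested genes did. In 7 of them (Ash1l, Crebbp, Kmt2a, Kmt2c, Kmt2d, Ep300 and Setd2) the mean level was 2.73- to 4.2-fold that of the control line. Nsd1 was 1.86-fold higher with overlapping lines, and Setd1a and Kmt2b were 1.25- and 1.11-fold higher. In 9 of the 10, every gene but Nsd1, both MEIS2 libraries lay above both controls, which held for 22.6% of tested genes. The 10 genes were chosen with these differences already known, so the counts and folds describe them and carry no test. In the edgeR test 0 of the 10 reached an adjusted p of 0.05, where 0.00781% of tested genes were called higher. An unadjusted p under 0.05 was seen for 7 of 10, against 9.79% of tested genes on the higher side. DESeq2 called 5 of the 10 higher (Kmt2a, Kmt2d, Ash1l, Crebbp and Ep300) and 0 lower, against 0.848% higher and 0.0116% lower among 8608 genes, and gave no adjusted p for Nsd1. With limma-voom 0 of the 10 were called, against 0.00781% of tested genes in either direction.

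**Figure D1:**
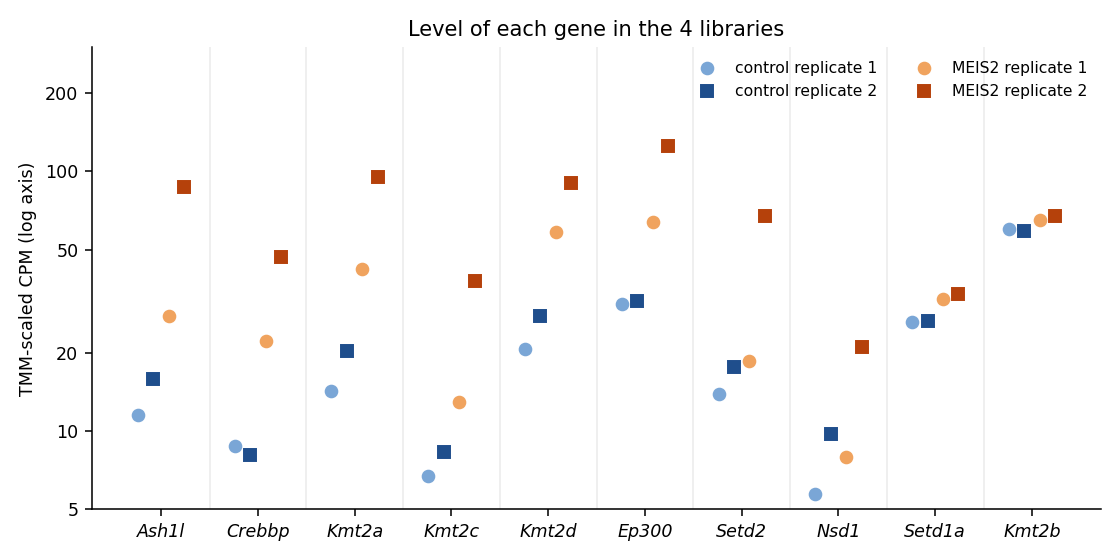
TMM-scaled CPM on a log axis for each of the 10 genes (x axis, ordered by the fitted difference between the lines) in control replicates (C1 and C2) and MEIS2 replicates (M1 and M2), 1 point per library. M2 is the highest library for every gene, from 21.0 CPM for Nsd1 to 124.6 CPM for Ep300, and for Setd1a and Kmt2b the 4 points lie close together.

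Among the acetyltransferases, Crebbp (chromosome 16, 3899192 to 4031861, minus strand) measured 8.8 CPM in C1, 8.12 in C2, 22.2 in M1 and 46.6 in M2, from 135, 132, 346 and 782 counts. Gene positions here and below are those of the deposited table, with a build not given in the sources used here. The controls were close together, M1 stood 2.62-fold above their mean and M2 stood 5.51-fold above it, which gave a log2 fold change of 2.02 (SE 0.42). Its paralogue Ep300 (chromosome 15, 81469552 to 81536278, plus strand) measured 31 CPM in C1, 31.6 in C2, 63.6 in M1 and 124.6 in M2, with a log2 fold change of 1.59 (SE 0.36). For both paralogues the gap between the controls was small, with C2 minus C1 at 0.03 for Ep300 and -0.11 for Crebbp on the log2 scale. M2 exceeded M1 by 0.97 for Ep300 and by 1.07 for Crebbp. Per kilobase of gene length, the ratio of Ep300 to Crebbp was 3.34 in C1, 3.69 in C2, 2.72 in M1 and 2.54 in M2. This ratio, which does not depend on the scaling between libraries, was lower in both MEIS2 libraries than in both controls.

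In the KMT2 family, Kmt2a (chromosome 9, 44714652 to 44792594, minus strand) measured 14.3 CPM in C1, 20.4 in C2, 41.9 in M1 and 95.3 in M2. Its log2 fold change was 1.99 (SE 0.42), and M1, the lower MEIS2 library, was 2.42-fold above the control mean. Kmt2b (chromosome 7, 30268283 to 30288151, minus strand), the closest relative of Kmt2a, measured 59.9 CPM in C1, 59.0 in C2, 64.8 in M1 and 67.5 in M2. The log2 fold change was 0.15 (SE 0.31), so the MEIS2 libraries lay above the controls by a small margin. The ratio of Kmt2a to Kmt2b per kilobase was 0.137 in C1, 0.199 in C2, 0.372 in M1 and 0.812 in M2, higher in both MEIS2 libraries than in both controls. It also differed within each line. Kmt2a has 16670 bases and 50.6% GC and Kmt2b 9596 bases and 59.1% GC, and the part of length and GC content in the ratio was not tested.

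The enhancer enzymes Kmt2c and Kmt2d are the longest of the 10 genes. Kmt2d (chromosome 15, 98729550 to 98769085, minus strand) measured 20.7 CPM in C1, 27.7 in C2, 58.2 in M1 and 89.8 in M2, with a log2 fold change of 1.61 (SE 0.36). Kmt2c (chromosome 5, 25476796 to 25703781, minus strand) measured 6.71 CPM in C1, 8.31 in C2, 12.9 in M1 and 37.7 in M2, with a log2 fold change of 1.75 (SE 0.48). M2 stood 1.54-fold above M1 for Kmt2d and 2.92-fold above it for Kmt2c. The Kmt2c to Kmt2d ratio per kilobase was 0.318 in C1, 0.295 in C2, 0.219 in M1 and 0.413 in M2, so the MEIS2 libraries lay on either side of the controls.

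Setd1a (chromosome 7, 127375842 to 127399294, plus strand) measured 26.4 CPM in C1, 26.5 in C2, 32.2 in M1 and 33.8 in M2, with a log2 fold change of 0.32 (SE 0.34). The MEIS2 libraries lay 1.22- and 1.28-fold above the control mean. An annotated gene, Gm49388, shares 51.8% of the exon bases of Setd1a on the same strand and had 0 counts in all 4 libraries. How reads that match both were counted was not stated, so the level of Setd1a is uncertain.

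Of the lysine 36 enzymes, 2 lay in M1 close to the controls. Setd2 (chromosome 9, 110361665 to 110447701, plus strand) measured 13.9 CPM in C1, 17.6 in C2, 18.6 in M1 and 67.3 in M2. M1 was thus 1.18-fold above the control mean, and M2 stood 3.61-fold above M1, the widest such gap of the 10. The log2 fold change of Setd2 was 1.45 (SE 0.49), and 0.21 (SE 0.36) without M2. Nsd1 (chromosome 13, 55357595 to 55466138, plus strand) measured 5.73 CPM in C1, 9.79 in C2, 7.94 in M1 and 21.0 in M2, so M1 lay between the controls. Its log2 fold change was 0.90 (SE 0.49), and it was 0.00069 without M2, 1.44 without M1, 0.56 without C1 and 1.33 without C2. Ash1l (chromosome 3, 88857929 to 88986682, plus strand) measured 11.5 CPM in C1, 15.9 in C2, 27.7 in M1 and 87.4 in M2, and had the largest log2 fold change of the 10 at 2.07 (SE 0.48). Ash1l shares 352 exon bases, 2.37% of its exons, with Dap3 on the other strand, which had 2528, 2187, 2118 and 1597 counts in C1, C2, M1 and M2. The use of strand in counting was not stated, so reads of the shared bases cannot be told apart, and their part in the value of Ash1l was not tested.

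M2 weighed on most of these values. Without it the log2 fold change was 1.35 for Crebbp, 1.24 for Kmt2a, 1.23 for Kmt2d, 0.98 for Ep300, 0.98 for Ash1l, 0.75 for Kmt2c, 0.24 for Setd1a and 0.08 for Kmt2b. The median of the 10 genes was then 0.86, against 1.60 with all 4 libraries and 2.05 without M1.

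Per kilobase of gene length, the 10 genes had low to middle levels among all tested genes in the control line. They were not compared with genes of like length. Levels per length are given as TMM-scaled CPM per kilobase of gene length, with the mean and SD of each pair of libraries. In the control line Kmt2b stood at 6.2 ± 0.068, Setd1a at 3.89 ± 0.00788 and Ep300 at 2.19 ± 0.0309 (n = 2), and the ranges of these 3 did not overlap with each other or with the next gene. Setd2 (1.46 ± 0.245), Kmt2d (1.21 ± 0.247), Kmt2a (1.04 ± 0.259) and Ash1l (0.924 ± 0.207) followed, and each overlapped its neighbour in this order. Crebbp (0.625 ± 0.0351) overlapped neither neighbour, whereas Nsd1 (0.444 ± 0.164) and Kmt2c (0.37 ± 0.0557) overlapped each other. Of the 10 only Kmt2b lay above the median of all tested genes in the control line, 5.26 CPM per kilobase, and 8.3% of tested genes lay below Kmt2c. In the MEIS2 line the order began with Kmt2b (6.89 ± 0.204) and Ep300 (6.59 ± 3.02) and ended with Kmt2c (1.25 ± 0.864) and Nsd1 (0.827 ± 0.527). There each gene overlapped the next in the order. In raw counts, the 10 genes together had 3053 in C1, 3653 in C2, 5462 in M1 and 11257 in M2, or 0.0181%, 0.0222%, 0.0348% and 0.075% of each library.

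The 10 genes are long. Their gene lengths in the table ran from 6795 bases for Setd1a to 20291 bases for Kmt2c, with a median of 14556 bases against 4219 over the tested genes. When the tested genes were split by length into 10 groups of equal size, 8 of the 10 fell in the group of the longest 1281 genes, Kmt2b (9596 bases) in the next and Setd1a in the one after. In the longest group 88.7% of genes had a higher fitted level in the MEIS2 line, and the median log2 fold change was 0.73, between quartiles of 0.31 and 1.15. The 8 members in it ranged from 0.90 for Nsd1 to 2.07 for Ash1l, so all 8 stood above the median of their length group and 7 of them, all but Nsd1, above its upper quartile. Setd1a stood 0.05 above the median of its length group, and Kmt2b, at 0.15, stood below the median of its own, 0.43. Since the 10 genes were chosen with these differences known, their places in the groups are descriptions only.

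**Figure D2:**
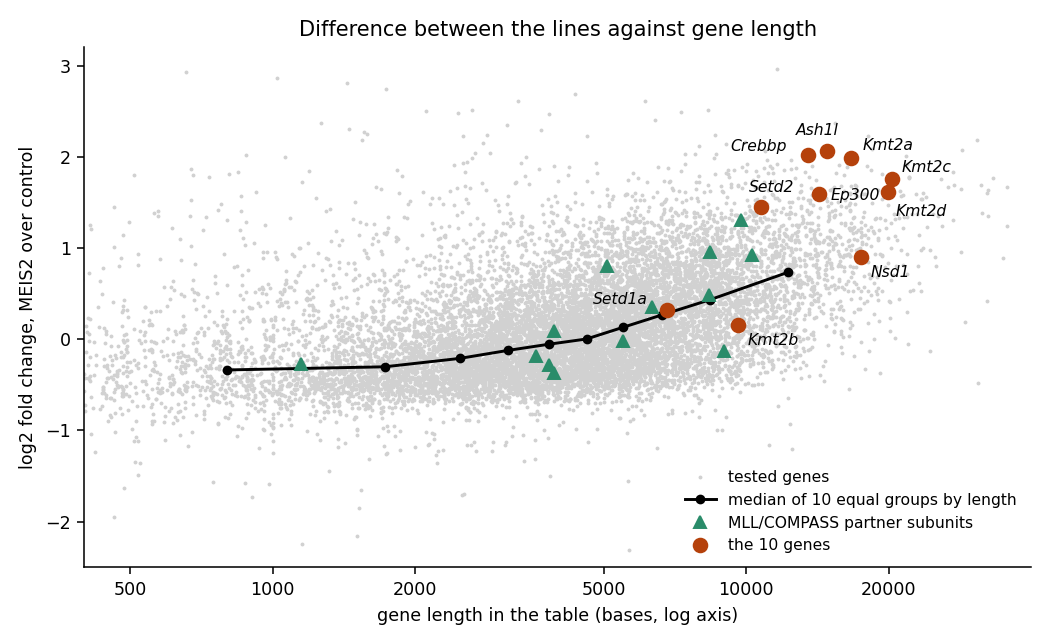
Fitted log2 fold change between the lines (y axis) against gene length in bases (log x axis) for tested genes within the plotted range (grey), the medians of 10 equal groups by length (black line), the 13 tested partner subunits of the methyltransferase (MLL/COMPASS) complexes (green triangles) and the 10 genes (red). The black line runs from -0.34 in the shortest group to 0.73 in the longest, and 7 of the red points lie above 1.4.

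Long genes as a whole differed between the 4 libraries in the same order as these 10. As log2 deviation from each gene's mean, the longest group had a median of -0.53 in C1, -0.13 in C2, 0.01 in M1 and 0.72 in M2. The medians over the 10 genes were -0.83, -0.60, 0.11 and 1.36. In M1 minus C2 the longest group had a median difference of 0.12 and quartiles of -0.19 and 0.42. In that pair Crebbp stood at 1.43, Kmt2d at 1.07, Kmt2a at 1.04, Ep300 at 1.01, Ash1l at 0.80 and Kmt2c at 0.63, all above the upper quartile of the group. Setd2 stood at 0.08 and Nsd1 at -0.30, and Setd1a and Kmt2b, from shorter groups, at 0.28 and 0.13. M1 and C2 are the libraries of different lines whose medians for the longest group lay closest. The pair has 1 library of each line and so no spread. The genes were chosen with the difference between the lines known, so their places in the group describe them and carry no test.

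The fit was repeated with each library's smooth trend on gene length removed, and again with trends on length and GC content removed. The median log2 fold change of the 10 genes was then 0.73 and 0.77. Crebbp had the highest value of the 10 in both fits, 1.23 (SE 0.30) and 1.35 (SE 0.29). Ash1l stood at 1.16 and 1.13, and Kmt2a at 1.07 and 1.13. Ep300 stood at 0.77 and 0.85, Kmt2d at 0.69 and 1.01, Setd2 at 0.77 and 0.70, and Kmt2c at 0.67 in both. For Nsd1 the sign turned in both fits, to -0.06 and -0.08. Kmt2b stood at -0.30 and 0.01, so its sign turned in the first, and Setd1a at 0.06 and 0.33. In both fits 0 of the 10 reached an adjusted p of 0.05. Over all tested genes 1 was called with the length trend removed and 0 with both trends removed. Meis2 itself was thus not called in the second fit, so the 0 of 10 there says nothing particular to these genes. A removed trend also takes out any true difference that follows length or GC content.

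**Figure D3:**
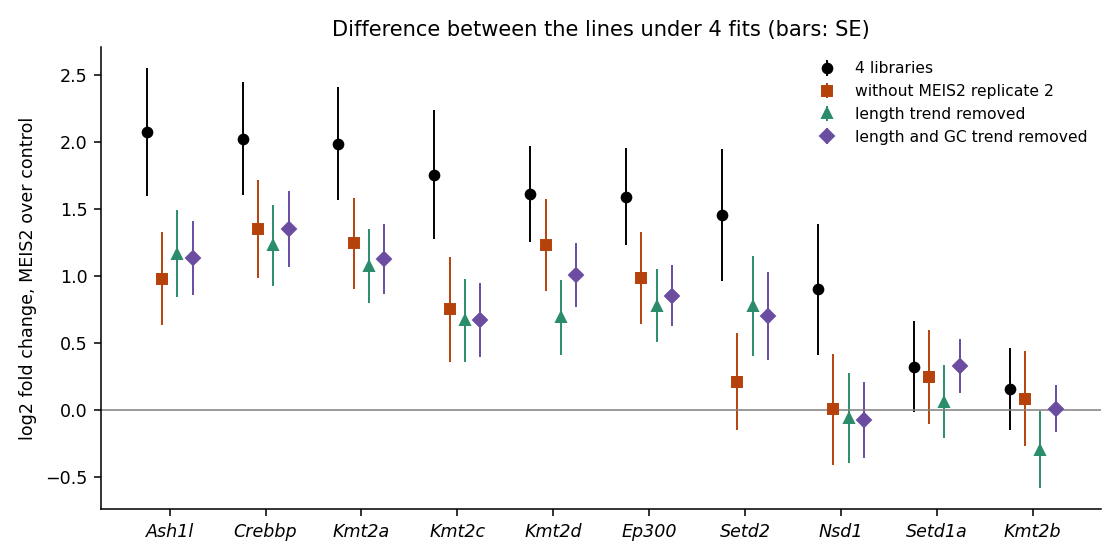
Log2 fold change of each gene (MEIS2 over control, y axis) with its SE as bars, from the 4 libraries as counted, without MEIS2 replicate 2, with the length trend removed and with the length and GC trends removed. Crebbp, Kmt2a and Ash1l lie between 0.98 and 2.07 in the 4 fits, whereas Nsd1, Setd1a and Kmt2b lie between -0.30 and 0.33 in the 3 alternative fits.

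The 10 genes differed in GC content, taken from the longest GENCODE M21 transcript of the same gene ID. It ran from 44.3% for Setd2 to 59.1% for Kmt2b, with a median of 50.9% against 49.7% over the tested genes. M2 minus M1, a difference within 1 line, was 1.85 for Setd2, 1.65 for Ash1l (45.4% GC), 1.39 for Nsd1 (46.5%) and 1.53 for Kmt2c (47.6%) on the log2 scale. It was 1.18 for Kmt2a (50.6%), 0.97 for Ep300 (51.1%) and 1.07 for Crebbp (51.7%). The lowest values were those of the 3 genes richest in GC, with 0.07 for Setd1a (57%), 0.62 for Kmt2d (58.4%) and 0.06 for Kmt2b. Across the 10 genes the Spearman rho of M2 minus M1 with GC content was -0.964, and across all tested genes it was -0.64. Genes are not independent replicates and every point comes from the same pair of libraries, so these rho values are descriptions. The difference between the lines had a rho of -0.345 with GC content and of 0.467 with length over the 10 genes, close to the -0.421 and 0.488 over all tested genes. Of the 3 genes richest in GC, Kmt2d was the one that differed between the lines by more than 1 on the log2 scale. It has 19931 bases, against 9596 for Kmt2b and 6795 for Setd1a. With length and GC trends removed Kmt2d stood at 1.01, Setd1a at 0.33 and Kmt2b at 0.01. The part of length in this was not tested.

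**Figure D4:**
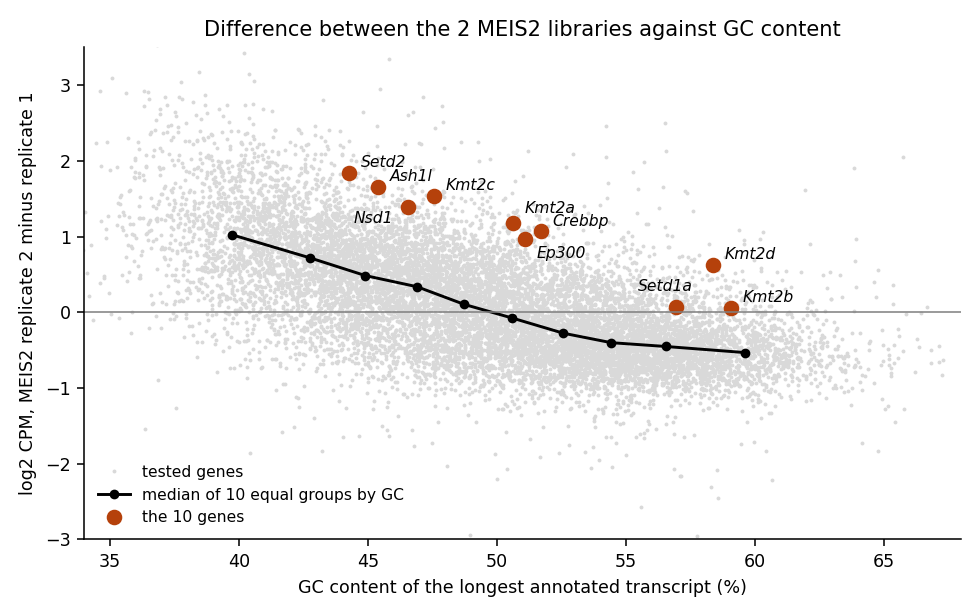
Difference between the 2 MEIS2 libraries (replicate 2 minus replicate 1, log2 CPM, y axis) against GC content of the longest annotated transcript (x axis, %) for tested genes within the plotted range (grey), the medians of 10 equal groups by GC content (black line) and the 10 genes (red). The red points descend from 1.85 at 44.3% GC to 0.06 at 59.1% GC and lie above the black line, which runs from 1.02 to -0.53.

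RefSeq start sites on GRCm38.p6, whose positions differ from those of the deposited table, gave a promoter, 250 bases before to 50 after the start, for 7 of the 10 genes: Kmt2a, Kmt2c, Kmt2d, Setd1a, Setd2, Crebbp and Ep300. All 7 were rich in CpG dinucleotides, with 27 to 56 in the 300 bases against a median of 7 over 32851 promoters, and their GC content was 62.7% to 88% against a median of 52.7%. The core MEIS motif TGACAG was in 0 of the 7 on either strand, and 19.2% of all promoters held it. The full cAMP response element TGACGTCA, which CREB binds, was in 0 of the 7 as well, and 1.79% of all promoters held it. The GC box GGGCGG, a site of SP1 and related factors, was in 6 of 7, all but that of Setd1a, against 35.7% of all promoters, with both strands searched and overlapping matches counted. A match describes the letters and is not a site, and no match says only that the letters are not in this window. The shares are over promoters of every GC content and were not matched to the 7. The part of base composition in the numbers for all 3 motifs was not tested. Of 4 genes shown here, Crebbp, Kmt2a and Kmt2c had large differences between the lines. Setd1a had a smaller one, 1.25-fold, and its level is uncertain through the exon bases shared with Gm49388. The 250 bases upstream of the 4 starts are given 5′ to 3′ on the strand of the gene, with GC boxes of either strand in capitals. They cover chr16:4213405-4213654, chr9:44881290-44881539 and chr5:25498784-25499033 on the minus strand and chr7:127777139-127777388 on the plus strand of GRCm38.p6.
Crebbp: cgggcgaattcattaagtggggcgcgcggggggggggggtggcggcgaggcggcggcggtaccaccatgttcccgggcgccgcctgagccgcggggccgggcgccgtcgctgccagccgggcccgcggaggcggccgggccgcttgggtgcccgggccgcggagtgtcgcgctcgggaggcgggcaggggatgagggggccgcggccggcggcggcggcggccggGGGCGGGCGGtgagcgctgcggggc
Kmt2a: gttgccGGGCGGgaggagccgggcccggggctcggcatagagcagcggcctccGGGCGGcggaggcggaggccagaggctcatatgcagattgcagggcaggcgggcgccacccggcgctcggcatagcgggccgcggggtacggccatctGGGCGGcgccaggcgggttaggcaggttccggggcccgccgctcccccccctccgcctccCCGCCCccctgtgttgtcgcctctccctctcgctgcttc
Kmt2c: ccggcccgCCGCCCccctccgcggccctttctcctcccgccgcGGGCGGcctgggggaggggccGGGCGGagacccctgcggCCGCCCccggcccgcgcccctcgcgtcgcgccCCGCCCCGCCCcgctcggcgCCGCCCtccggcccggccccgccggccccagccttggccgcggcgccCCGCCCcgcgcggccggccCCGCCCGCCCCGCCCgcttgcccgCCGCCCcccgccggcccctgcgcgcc
Setd1a: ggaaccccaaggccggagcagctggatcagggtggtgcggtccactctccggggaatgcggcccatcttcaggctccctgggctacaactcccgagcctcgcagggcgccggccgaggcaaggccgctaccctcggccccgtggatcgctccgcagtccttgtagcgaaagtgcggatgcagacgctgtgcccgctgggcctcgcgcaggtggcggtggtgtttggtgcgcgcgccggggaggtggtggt
These stretches hold 2, 4, 12 and 0 GC boxes in that order. Crebbp, with 2 boxes, and Kmt2c, with 12, had log2 fold changes of 2.02 (SE 0.42) and 1.75 (SE 0.48). A link between the number of boxes and the difference between the lines was not tested.

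The small core subunits of the methyltransferase complexes stood between -0.27 and 0.09. WDR5, ASH2L, RBBP5 and DPY30 form the core that binds every KMT2A to KMT2D and SETD1 enzyme. Wdr5 had a log2 fold change of -0.19 (SE 0.30), Ash2l of -0.13 (SE 0.30), Rbbp5 of 0.09 (SE 0.32) and Dpy30 of -0.27 (SE 0.34). With the length trend removed Ash2l stood at -0.53. Over the 13 tested of 14 listed partner subunits, 7 were higher and 6 lower, with a median of 0.09 that ranged from -0.05 to 0.22 with 1 library left out and from -0.02 to 0.24 over the other settings, so its sign turned. Lowest were Cxxc1 (-0.37, SE 0.32), the CpG-binding subunit of the SETD1 complexes, and Men1 (-0.29, SE 0.31), which encodes menin, a subunit of the KMT2A and KMT2B complexes. Highest were Ncoa6 (1.31, SE 0.41) and Kdm6a (0.96, SE 0.50), both of the KMT2C and KMT2D complexes, the latter a lysine 27 demethylase. Without M2, Kdm6a stood at 0.01 and Ncoa6 at 0.72. The tested partner genes have a median length of 5485 bases, and Ncoa6 has 9744 bases.

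Other enzymes and partners were described from lists drawn up by function. A first list held methyltransferases of lysine 4 and lysine 36 outside the 10 genes and relatives of them, not all of which need be active on histones. Of its 10 tested genes 7 were higher, and their median stood at 0.56 on the log2 scale (0.27 to 0.79 with 1 library left out, and 0.05 with the length trend removed). Kmt2e, a KMT2 relative, and Setd7 stood highest at 1.67 (SE 0.45) and 1.15 (SE 0.36), or 0.73 and 0.68 without M2, and Smyd2 and Smyd3 lowest at -0.31 and -0.29. Of 13 methyltransferases of lysines 9, 27 and 79 of H3 and lysine 20 of H4, 10 were higher, with a median of 0.33 (0.04 without M2 to 0.66 without C2, and 0.05 with the length trend removed). They ranged from Ehmt2 (-0.44), which dimethylates lysine 9, and Suv39h1 (-0.28) to Prdm2 (0.79) and Kmt5b (0.81), which stood at 0.47 and 0.25 without M2. With the length trend removed Prdm2 stood at 0.47 and Kmt5b at -0.0024. Of 9 non-catalytic subunits of the Polycomb complex PRC2, 6 were higher, with a median of 0.36 (0.03 without M2 to 0.63 without M1, and 0.37 with the length trend removed). Suz12, at 1.33, stood at 0.04 without M2, and Aebp2, also at 1.33, stood at 0.54, while Rbbp4 (-0.34) and Phf19 (-0.24) were lowest.

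Among other histone acetyltransferases 4 of 8 were higher, with a median of -0.05 (-0.07 to 0.08 with 1 library left out and -0.11 to 0.09 over the other settings, so its sign turned). Highest were Kat6a (1.31, SE 0.41) and Kat6b (1.16, SE 0.43), of 9330 and 16826 bases, which both stood at 0.59 without M2, and lowest were Kat5 (-0.39) and Kat2a (-0.26), of 3509 and 3480 bases. Of 11 tested partners of CBP and p300, 7 were higher, with a median of 0.39 (0.14 without M2 to 0.57 without M1, and -0.13 with the length trend removed). The nuclear receptor coactivators Ncoa2 (1.14, or 0.57 without M2) and Ncoa3 (1.05) were highest, and Cited1 (-0.62, SE 0.65) and Crem (-0.39, SE 0.49) lowest. Cited1 rests on 29, 13, 17 and 11 counts in C1, C2, M1 and M2, and stood at 0.12 without C1 and -1.11 without C2. Of 15 tested demethylases 14 were higher, all but Kdm4b (-0.34), with a median of 0.52 (0.25 without M2 to 0.77 without M1, and 0.14 with the length trend removed). The next lowest was Kdm4a (0.01), and Kdm7a (1.33, SE 0.63) and Kdm2a (0.96, SE 0.33) were highest. Without M2 these 3 stood at -0.05, 0.12 and 0.56, and 12 of the 15 demethylases were higher. Of 10 tested deacetylases 4 were higher and 6 lower, with a median of -0.25 (-0.38 without M1 to -0.13 without C1, and -0.25 with the length trend removed). They ranged from Hdac7 (-0.42) and Hdac3 (-0.36) to Hdac2 (0.42) and Hdac4 (1.12), the latter 15813 bases long. Without M2, Hdac2 stood at -0.13 and 2 of the 10 deacetylases were higher. Of 9 genes known as targets of KMT2A and menin 5 were tested and all 5 were higher, from Cdkn1b (0.29) and Hoxa5 (0.42) to Meis1 (0.53) and Pbx3 (0.83). Their median was 0.43 (0.33 without C1 to 0.66 without M1, and 0.55 with the length trend removed), and the 4 others were at too few counts to test. Without M2, Hoxa5 stood at -0.32 and Cdkn1b at -0.06, so 3 of the 5 were higher, and Meis1 was at -0.0016 with the length trend removed.

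The 2 highest and 2 lowest genes of these 9 lists make 36 genes, and without M2 the sign turned for 4 of them (Cdkn1b, Hdac2, Hoxa5 and Kdm4a) and 27 others moved toward 0 by over 1.5 times. In these 9 lists 0 genes reached an adjusted p of 0.05 with edgeR, DESeq2 or limma-voom. Over all tested genes edgeR called 0.00781% higher, DESeq2 0.848% higher and 0.0116% lower, and limma-voom 0.00781% in either direction. At such shares lists of this size would hold few or no calls. At an unadjusted p under 0.05, the numbers higher were 2 of 13 partner subunits, 4 of 10 other lysine 4 and 36 enzymes and their relatives, 1 of 13 other methyltransferases, 3 of 9 PRC2 subunits, 2 of 8 acetyltransferases, 3 of 11 CBP and p300 partners, 2 of 15 demethylases, 1 of 10 deacetylases and 0 of 5 targets. In each list 0 were lower, and the background over all tested genes was 9.79% higher and 0.414% lower.

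**Figure D5:**
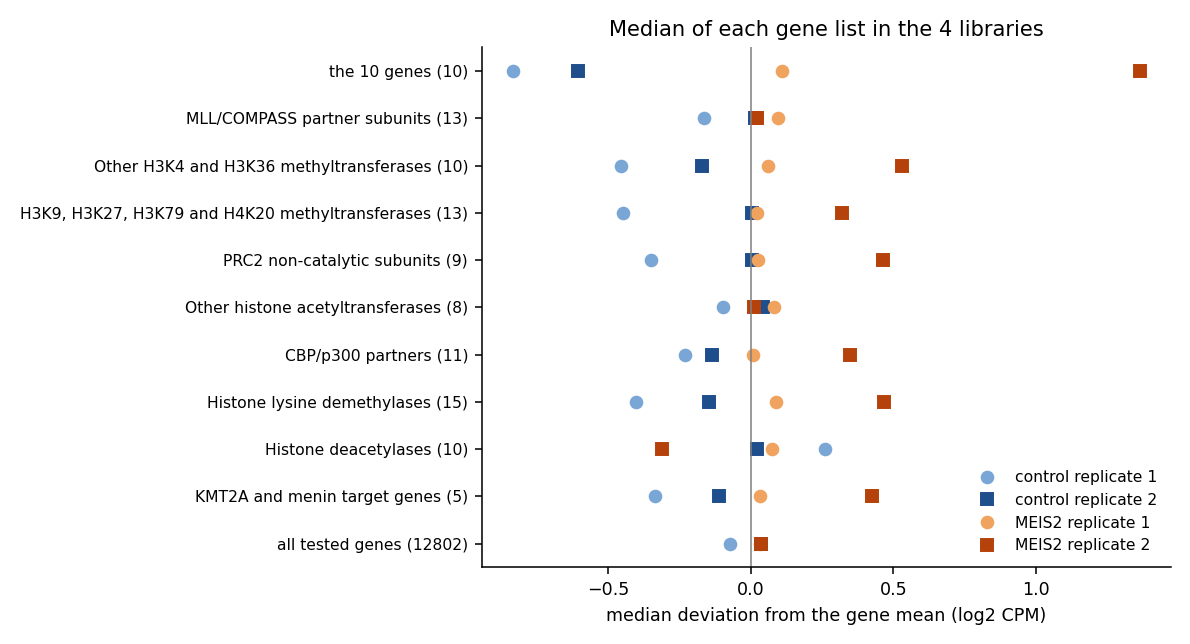
Median deviation from the gene mean (log2 CPM, x axis) of the 10 genes, 9 lists of related genes and all tested genes in each library, with the number of tested genes in brackets. The 10 genes spread from -0.83 in control replicate 1 to 1.36 in MEIS2 replicate 2, and the histone deacetylases run from 0.26 in control replicate 1 to -0.31 in MEIS2 replicate 2.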

How the data were processed

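The deposited table holds read counts per gene as whole numbers, with a column for each library, beside symbol, position and gene length per the file headers. Per the labels' protocols, RNA was selected on oligo(dT) beads, fragmented and made into libraries with a New England Biolabs protocol. Whether the RNA was degraded, and any part of that in the coverage of long transcripts, was not tested. The submitters' processing notes list DESeq2 without a version. The aligner, the counter, its strand setting, the annotation and the build were not given in the sources used here.

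Counts were tested in R 4.3.3 with edgeR 4.0.16 (filterByExpr, TMM, quasi-likelihood F test on the line) over 12802 genes, with Benjamini-Hochberg adjustment and a threshold of 0.05. The SE was taken as the log2 fold change over the square root of F. CPM are TMM-scaled, except for marker lists and floors, and log2 CPM of single libraries use a prior count of 2. Trends were per-library smooths (mgcv 1.9.3) used as offsets. Alternatives were DESeq2 1.42.0, limma 3.58.1 voom, other scalings and filters, a replicate block and leaving out each library. GC content was known for 98.9% of tested genes. Libraries within a line differed beyond sampling noise (chi-square over its degrees of freedom 33.6 and 87.3), so each counted as 1 replicate. Near-identical copies were sought with BLAST+ 2.17.0 (90% identity over 150 bases), and Kmt2d and Setd1a each had 1, with 0 counts.

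The 10 genes and all lists were chosen with earlier results of these data known. Named genes are Meis2, the 10 genes, the core subunits, and the 2 highest and 2 lowest of each list. Levels per kilobase use the deposited gene length and are too low where the cells use a shorter isoform. Protein sequences were not used here.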

Additional observations from a re-analysis of the deposited data

How the results depend on the processing

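The number of the 10 genes with a higher fitted level was 10 under the scaling, filter, tool and leave-one-out alternatives and with the replicate block, 8 with the length trend removed, with or without the block, and 9 with the length and GC trends removed. Reversed were Kmt2b (-0.30) and Nsd1 (-0.061) with the length trend removed, Nsd1 (-0.079) with length and GC trends removed, and Kmt2b (-0.31) and Nsd1 (-0.064) with the length trend removed and a replicate block. The median log2 fold change of the 10 genes, 1.60, was 0.73 with the length trend removed, 0.77 with both trends removed, 0.67 with the length trend removed and the block, and between 0.86 (without MEIS2 replicate 2) and 2.05 (without MEIS2 replicate 1) when 1 library was left out. Among all tested genes 1 was called, against 271 without a filter, 74 by DESeq2, 0 with both trends removed, and between 1 and 2401 with 1 library left out (2401 without MEIS2 replicate 1 and 4 without MEIS2 replicate 2). Of the 10 genes, 7 were among the 271 called of 21576 genes without a filter, and 5 among the 74 called of 8608 genes by DESeq2. No conclusion is drawn from the numbers of called genes with 1 library left out. In those fits the lone library of a line is assumed to vary like the other line. The cause of these changes was not tested. The labels do not pair the replicate numbers. With the replicate number as a block 2795 of 12802 genes were called (1883 of them higher), 8 of the 10 among them, on 1 residual degree of freedom. With the block and the length trend removed 2232 of 12802 were called (1022 of them higher), 7 of the 10 among them. This fit too had 1 residual degree of freedom. Same-numbered libraries deviated together (r = 0.529 across genes). Over all tested genes the median log2 fold change was 0.01, and 0.17 with scaling by library size alone. With 2 libraries a line, the SE over all tested genes had a median of 0.376 (log2).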
